A study of Mus musculus with 6 samples.

Results

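The high mobility group chromatin protein genes and the stathmin gene Stmn1 were examined in mouse skin under chronic restraint stress. The set was given by name: Hmgb1, Hmgb2, Hmgb3, Hmga1, Hmgn1, Hmgn2, Hmgn3, Hmgn5 and Stmn1, with pseudogenes left out. These are 9 of the 54146 Ensembl gene IDs in the files, and all 9 were found and passed the filter on low values. The set was chosen by measured values, the FPKM of stressed against control mice in these same libraries, so levels and fold changes in that contrast are a description and carry no test.

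Total RNA of skin from 3 stressed mice (CRS, chronic restraint stress) and 3 control mice (CON) was sequenced, 1 library per mouse, 12 weeks into the stress. Chronic restraint, the repeated confinement of an animal, models psychological stress in rodents. The sources used here do not give strain, sex, age or the part of the body sampled, or say whether the mice were housed or processed together, so the spread between libraries may be partly technical. Values are in FPKM, the fragments of a gene per unit of exon length and of library size, which can be compared between genes because length is divided out.

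High mobility group proteins are abundant, small chromatin proteins that bind DNA or nucleosomes without strong sequence preference. The HMGB proteins carry paired HMG boxes that bend DNA, and Hmgb1 protein released from cells also acts as an alarm signal. The HMGA proteins bind the minor groove of AT-rich DNA through AT-hooks, and the HMGN proteins bind the nucleosome core and counteract linker histone. Stathmin, the product of Stmn1, sequesters tubulin and destabilises microtubules. Several of these genes are highly expressed in dividing cells, and in skin the hair matrix and the basal epidermis hold many of those.

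Because the 3 HMGB genes all had separate groups, the bases just before their annotated starts are shown, as far as these overlap no annotated exon. They come from the RefSeq promoter table of build GRCm38.p6, are printed 5′ to 3′ on the gene's strand and end at the base before the start. Capitals mark CCAAT, the NF-Y box, and TTTGAA, a cell cycle element, each searched on both strands. The Hmgb1 stretch lies at chr5:149053058-149053207 (minus strand), that of Hmgb2 at chr8:57511693-57511842 (plus strand) and that of Hmgb3 at chrX:71555767-71555916 (plus strand).
Hmgb1: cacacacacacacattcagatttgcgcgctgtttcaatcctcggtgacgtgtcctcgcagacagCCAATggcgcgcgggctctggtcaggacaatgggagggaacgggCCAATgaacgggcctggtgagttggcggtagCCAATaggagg
Hmgb2: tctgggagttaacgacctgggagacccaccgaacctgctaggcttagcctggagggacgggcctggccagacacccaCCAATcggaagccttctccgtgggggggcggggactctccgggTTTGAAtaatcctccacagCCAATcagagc
Hmgb3: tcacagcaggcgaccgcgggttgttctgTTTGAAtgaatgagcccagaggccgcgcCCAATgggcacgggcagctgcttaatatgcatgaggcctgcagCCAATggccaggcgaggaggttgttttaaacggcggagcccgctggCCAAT

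In the 250 bases before the start, Hmgb1 held 3 CCAAT boxes, Hmgb2 held 4 and Hmgb3 held 3. Of 32851 RefSeq promoter windows, 33.8% held at least 1 CCAAT and 10.1% at least 2. Hmgb2 held TTTGAA 2 times and Hmgb3 1 time, against 16.0% of all windows with at least 1. CCAAT and TTTGAA stood together in Hmgb2 and Hmgb3 and in 5.5% of all windows. Hmgb1 has a second annotated start, whose window held neither motif. The bases before that start also overlapped no annotated exon, but they are not shown. The table held promoters of 7 of the 9 genes and none of Hmgn3 or Stmn1. CCAAT was present in 5 of the 7, which besides the HMGB genes were Hmgn1 and Hmgn5 with 2 each. The windows of Hmga1 and Hmgn2 held no CCAAT and no TTTGAA. The GC box, GGGCGG on either strand, was present in 6 of the 7, in Hmgb1 only at the second start, against 32.7% of all windows. The 7 genes had 9 windows, 5 of them with CCAAT. A gene with several windows has more occasions for a match than a single window, so counts of genes and shares of windows are not like for like. No match of one motif overlapped a match of another in these windows, and a match of letters is not a binding site.

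Depth, recovered from the FPKM values, was 13.3 to 25.7 M fragments per library. The libraries were not alike beyond the groups. CON replicate 1 had 15.3% of its fragments in mitochondrially encoded genes, against 2.50% to 4.19% in the others, and its summed level of 8 skeletal muscle markers was 13157 FPKM, against 449 to 2797 FPKM. That library also had Xist, the X-inactivation transcript, at 2.80 FPKM, against 0.0221 to 0.168 FPKM in the others, while the Y-linked Ddx3y was at 8.68 to 32.7 FPKM in all 6. Hmgb3 and Hmgn5 are on the X chromosome, and whether the library holds RNA of 1 mouse was not tested. CRS replicate 2 had the lowest sum of FPKM over all genes, 358190 against 456513 to 609908. Over all 28389 genes tested the median log2 fold change of CRS against CON was -0.20, so values under 0 were the rule at the deposited scaling, and it was 0.008 under median-ratio scaling. With limma, 0 genes were higher and 0 lower at an adjusted p under 0.05. At an unadjusted p under 0.05, 261 (0.919%) were higher and 462 (1.63%) lower, and voom on recovered fragments also called 0 in either direction, with 218 and 338 at the unadjusted threshold. The balance at that threshold turned with the scaling: 424 genes were higher and 183 lower under median-ratio scaling, 390 and 219 under upper-quartile scaling and 758 and 333 with a length correction, while a common sum without mitochondrial genes gave 187 and 549. It also moved with single libraries, the lower count running from 132 without CON replicate 1 to 4098 without CRS replicate 2.

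All 9 genes had a log2 fold change under 0, as had 67.8% of all genes tested and 72.5% of the 7261 genes averaging at least 5 FPKM, a level that every member exceeded. Their median was -0.75. In 5 of them, Hmgb1, Hmgb2, Hmgb3, Hmgn2 and Stmn1, each stressed mouse was below each control mouse. The share of all tested genes with such separate, lower CRS values was 5.19%, it was 9.94% of the genes averaging at least 5 FPKM, and 13.5% of the 3425 of those whose exon length was within the members' range of 1869 to 5023 nt. In the other 4, Hmga1, Hmgn1, Hmgn3 and Hmgn5, the groups overlapped, and no member had separate, higher CRS values, as 1.65% of all genes had. A log2 fold change of -1 or lower was found for Hmgb2 and Stmn1, for 6.41% of all genes and for 2.7% of those averaging at least 5 FPKM. Since the genes were chosen with this contrast known, nothing is read from these counts.

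**Figure D1:**
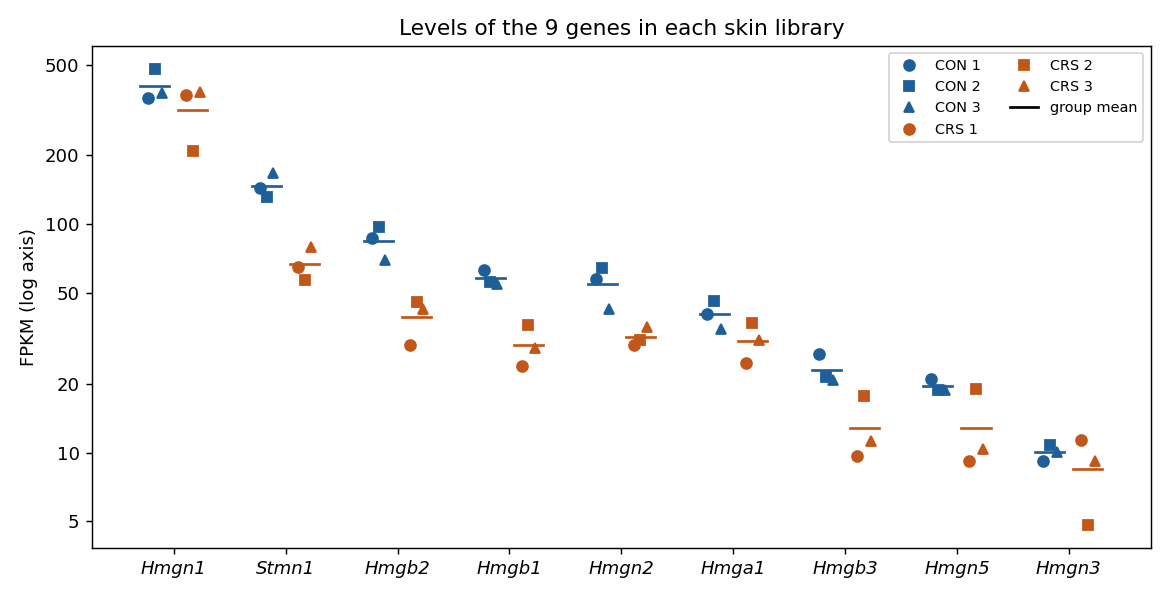
FPKM (log axis) of each gene, ordered by mean level, in the 3 CON and 3 CRS libraries. Symbols mark the replicate number within a group, which is not read as a pairing between groups, and short lines are group means. CON and CRS points are apart for Stmn1, Hmgb2, Hmgb1, Hmgn2 and Hmgb3, while CRS replicate 2 reaches the CON values of Hmga1 and Hmgn5.

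The levels spanned a wide range. Hmgn1 had the highest mean over the 6 libraries, 360.0 FPKM, followed by Stmn1 at 107.2, Hmgb2 at 61.9, Hmgb1 at 43.7, Hmgn2 at 43.5, Hmga1 at 35.7, Hmgb3 at 18.0, Hmgn5 at 16.2 and Hmgn3 at 9.22 FPKM. Within the CON mice the ranges of neighbours in this order overlapped for Hmgb1 and Hmgn2, Hmgn2 and Hmga1, and Hmgb3 and Hmgn5. Within the CRS mice they also overlapped for Hmgb2 and Hmgb1 and for Hmgn5 and Hmgn3. In both groups the ranges were apart between Hmgn1, Stmn1 and Hmgb2 at the top and between Hmga1 and Hmgb3 further down.

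Among the DNA-bending HMGB genes, Hmgb2 (ENSMUSG00000054717, chromosome 8), the member most tied to dividing cells, stood at 87.0, 97.3 and 69.98 FPKM in control replicates 1 to 3 and at 29.5, 45.6 and 42.3 FPKM in the stressed mice. The lowest CON value was well above the highest CRS value. Group means were 84.8 ± 13.8 and 39.1 ± 8.52 FPKM (SD over n = 3 mice), and the log2 fold change was -1.13 with an SE of 0.32 on the log2(FPKM + 0.1) scale. It rested on 1701 to 5826 fragments per library. The 9 pseudogenes like it held fragments amounting to 6.68% to 11.8% of its own.

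Hmgb1 (ENSMUSG00000066551, chromosome 5), the widely expressed member that also acts outside cells, stood at 63.1, 55.9 and 54.6 FPKM in the controls and 24.0, 36.3 and 28.6 FPKM in the stressed mice. The CON values lay close together, and each CRS value was well below them. The means were 57.9 ± 4.61 and 29.6 ± 6.17 FPKM, and the log2 fold change was -0.98 with an SE of 0.30. Hmgb1 has many processed copies in the mouse genome, which matters for how its fragments were assigned. A search of the annotated transcripts (at least 90% identity over at least 200 nt) found 113 pseudogenes like it, of which 103 had a value above 0. The fragments assigned to them amounted to 35.7% to 51.1% of those assigned to Hmgb1 itself. How the counting program treated fragments that match several places was not given in the sources used here, so the level of Hmgb1 is uncertain. With the fragments of the copies added, the log2 difference of the group means was -0.96, near the value without them.

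Hmgb3 (ENSMUSG00000015217, chromosome X), an HMGB gene known from embryonic and haematopoietic progenitor cells, was the least abundant of the 3. It stood at 27.1, 21.3 and 20.8 FPKM in the controls and 9.64, 17.6 and 11.2 FPKM in the stressed mice. The groups were apart, but CRS replicate 2 lay just below the lowest CON value. The means were 23.1 ± 3.47 and 12.8 ± 4.24 FPKM, and the log2 fold change was -0.88 with an SE of 0.33.

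The 3 HMGB genes kept similar proportions to each other. Hmgb2 made up 51.0 ± 4.14% of their summed FPKM in CON and 48.0 ± 3.08% in CRS (SD, n = 3). For Hmgb1 the shares were 35.1 ± 2.79% and 36.5 ± 1.63%, and for Hmgb3 13.9 ± 1.57% and 15.5 ± 2.06%. These shares overlapped between the groups. The sum was 177.2, 174.5 and 145.4 FPKM in the controls and 63.2, 99.5 and 82.1 FPKM in the stressed mice. Each of the 3 genes had separate groups, so the sum had to be separate too, and nothing is read from that. A share within a library does not depend on how that library was scaled.

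Hmga1 (ENSMUSG00000046711, chromosome 17), the AT-hook gene, stood at 40.5, 46.3 and 34.9 FPKM in the controls and 24.6, 36.97 and 31.1 FPKM in the stressed mice. The groups overlapped through CRS replicate 2, which exceeded CON replicate 3. The log2 fold change was -0.40 (SE 0.30). The intronless coding copy Hmga1b, closely similar in sequence, stood at 3.98 to 7.37 FPKM in the controls and 3.84 to 7.12 FPKM in the stressed mice, and fragments of the 2 genes may not be fully told apart. Hmga1 also overlaps annotated genes on the other strand, the highest with a mean of 16.5 FPKM, and strand was not given. Their part in its value was not tested.

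The nucleosome-binding HMGN genes were not alike. Hmgn2 (ENSMUSG00000003038, chromosome 4) stood at 57.6, 64.2 and 42.7 FPKM in the controls and 29.6, 31.2 and 35.5 FPKM in the stressed mice. The CRS values were tightly grouped and lay below all CON values, CON replicate 3 being the nearest. The means were 54.8 ± 11.0 and 32.1 ± 3.07 FPKM, and the log2 fold change was -0.75 with an SE of 0.30. For Hmgn2 the search found 20 pseudogenes, whose fragments came to 2.81% to 7.35% of its own.

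Hmgn1 (ENSMUSG00000040681, chromosome 16), the most abundant member, stood at 355.0, 479.1 and 373.9 FPKM in the controls and 366.1, 208.5 and 377.3 FPKM in the stressed mice. CRS replicates 1 and 3 were inside the CON range, and only CRS replicate 2 was low. The log2 fold change was -0.38 (SE 0.43), and it was -0.10 without that library. Hmgn3 (ENSMUSG00000066456, chromosome 9), a member known from brain and endocrine tissue, was likewise lowest in CRS replicate 2. It stood at 9.20, 10.8 and 10.1 FPKM in the controls and 11.3, 4.82 and 9.17 FPKM in the stressed mice. CRS replicate 1 was above all CON values, and CRS replicate 3 just below the lowest of them. Its log2 fold change of -0.33 (SE 0.37) was 0.029 without CRS replicate 2.

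Hmgn5 (ENSMUSG00000031245, chromosome X), a longer HMGN protein with an acidic tail, had the opposite exception. It stood at 20.9, 18.8 and 18.7 FPKM in the controls and 9.14, 19.0 and 10.4 FPKM in the stressed mice. CRS replicates 1 and 3 were far below the CON mice, while CRS replicate 2 was within their range. The log2 fold change was -0.67 (SE 0.35), and it was -0.99 without that library. Hmgn1 made up 82.6 ± 2.09% of the summed FPKM of the 4 HMGN genes in CON and 84.8 ± 4.93% in CRS.

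Stmn1 (ENSMUSG00000028832, chromosome 4), the microtubule-destabilising stathmin, stood at 143.3, 131.2 and 167.6 FPKM in the controls and 64.9, 56.9 and 79.2 FPKM in the stressed mice. The gap between the groups, from 79.2 to 131.2 FPKM, was wider than the range within either. The means were 147.4 ± 18.5 and 67.0 ± 11.3 FPKM, a ratio of 2.20 between CON and CRS and a log2 fold change of -1.14 (SE 0.32). Of all tested genes, 4.40% had a lower log2 fold change. It rested on 2398 to 5207 fragments per library, and 1 pseudogene like it held at most 2.59% of that.

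**Figure D2:**
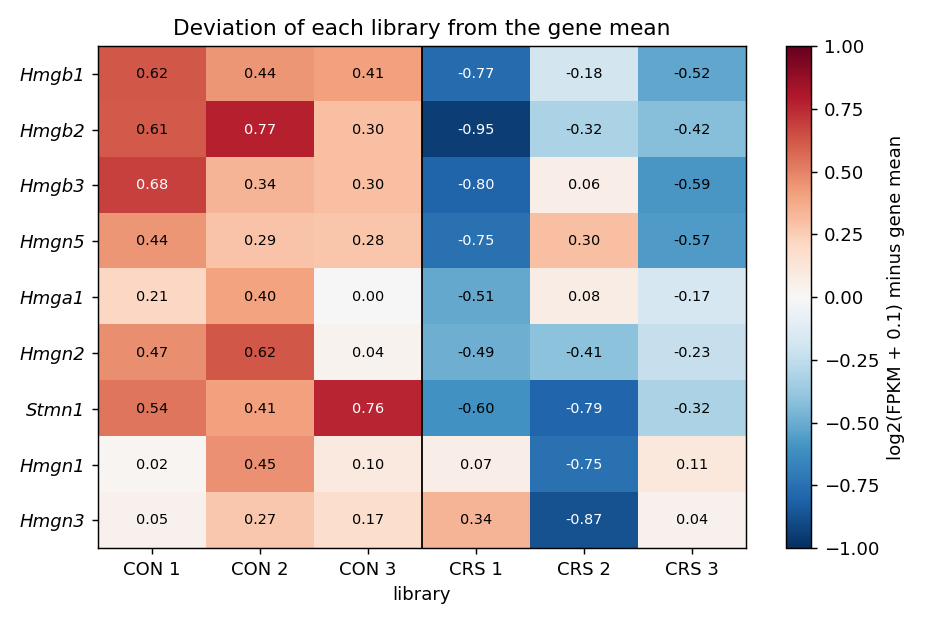
Deviation of each library from the gene's own mean, in log2(FPKM + 0.1), for the 9 genes (rows) and 6 libraries (columns, CON left of the line). Hmgb1, Hmgb2, Hmgb3 and Hmgn5 were lowest in CRS replicate 1, while Hmgn1 and Hmgn3 were lowest in CRS replicate 2.

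The deviations from each gene's mean fell into recognisable layouts, which are a description of 6 libraries. CRS replicate 1 was lowest for Hmgb1, Hmgb2, Hmgb3, Hmga1, Hmgn2 and Hmgn5, with deviations from -0.95 for Hmgb2 to -0.49 for Hmgn2. CRS replicate 2 was lowest for Hmgn1, Hmgn3 and Stmn1, at -0.75, -0.87 and -0.79. The closest pair of members was Hmgb1 and Hmgb3, with a root mean square difference of 0.12 log2 units over the 6 libraries, followed by Hmgb3 and Hmgn5 at 0.14 and Hmgn1 and Hmgn3 at 0.15. Stmn1 had its closest member in Hmgb1, at 0.31.

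By the same measure over 6545 other genes of at least 5 FPKM with a proper symbol, the closest to Hmgb1 was Slbp, which encodes the histone mRNA stem-loop binding protein, at 0.070. Slbp was also among the closest to Hmgb3, at 0.068, behind Paip1, a translation factor gene, at 0.059. The closest to Hmgb2 was Pbk, a mitotic kinase gene, at 0.15, with values of 20.6, 21.3 and 18.7 FPKM in the controls and 8.27, 13.3 and 9.90 FPKM in the stressed mice. The other close gene was Marcksl1 at 0.16. Stmn1 was nearest to the splicing genes Srsf9 and Snrpa1, both at 0.18, a looser match than for the other members. Hmgn2 was nearest to Cacybp at 0.069 and Mrpl44 at 0.095, Hmgn1 to Ptgds at 0.043 and Llph at 0.061, and Hmgn3 to Cebpzos at 0.052 and Mrps6 at 0.072. Hmga1 was nearest to Mat2b at 0.023 and Cops2 at 0.028, and Hmgn5 to Tbpl1 at 0.050 and Evl at 0.059. These are descriptions with no test.

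**Figure D3:**
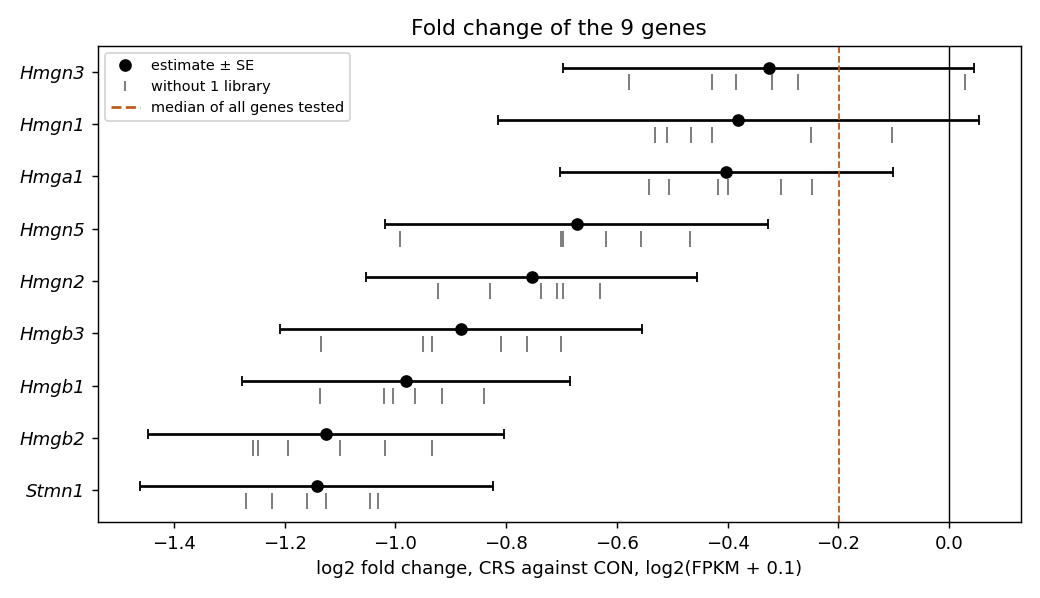
Log2 fold change of CRS against CON for the 9 genes (points, bars are ± SE of the limma fit), with the values without each library in turn (grey ticks) and the median of all genes tested (dashed line, -0.20). Hmgn3 is the only gene with a tick above 0, at 0.029 without CRS replicate 2.

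With each library left out in turn, the fold changes of the 5 separate genes stayed well under the median of all genes, which their choice partly set. Stmn1 ran from -1.27 to -1.03, Hmgb2 from -1.26 to -0.93, Hmgb1 from -1.14 to -0.84, Hmgb3 from -1.13 to -0.70 and Hmgn2 from -0.92 to -0.63. Of the other 4, Hmgn5 also stayed under that median, from -0.99 to -0.47. Without CRS replicate 2, Hmgn1 was at -0.10 and Hmgn3 at 0.029, above all genes at -0.21. Without CON replicate 2, Hmgn1 was at -0.25, where all genes were at -0.26. Hmga1 was at -0.25 without CRS replicate 1, where all genes were also at -0.25. Leaving out a library can only add to the genes with separate groups. The count was 5 without CON replicate 2 or CRS replicate 3 (12% and 7.19% of all genes), and 6 without CON replicate 3 or CRS replicate 1 (8.59% and 15.5%), through Hmga1 and Hmgn3 in turn. Without CRS replicate 2, Hmga1 and Hmgn5 joined, 7 of the 9, but the share of all genes with separate, lower CRS values also rose, to 27.4%, and to 43.9% of those averaging at least 5 FPKM. Without CON replicate 1, the library rich in muscle and mitochondrial transcripts, the count stayed at 5, against 7.11% of all genes and 13.1% of those averaging at least 5 FPKM. Without both, it was 7, against 31.1% and 49.9%. Among genes of at least 5 FPKM the share was 12.4% to 15.7% with any 1 of the other 4 libraries left out.

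The 8 related lists were chosen with earlier results of these data known, so their counts and unadjusted p-values are a description. Other high mobility group genes, those outside the named 9, were less abundant in this tissue than most of them, the highest single value being 12.2 FPKM for Hmg20b in CRS replicate 2. Of 7 listed, 6 passed the filter, 4 with a fold change under 0 and 2 above, and 0 passed the test in either direction. Hmga2, the mainly embryonic relative of Hmga1, stood at 2.08, 0.459 and 0.733 FPKM in the controls and 0.799, 0.0804 and 0.270 FPKM in the stressed mice, a log2 fold change of -1.36 (SE 0.78, limma adjusted p = 0.9999). Hmgxb4 had -0.57 (SE 0.39). Hmgb4, a testis gene, was listed at 0 in all 6 libraries. Among 30 other genes that encode an HMG box, 24 were under 0 and 6 above, with a median of -0.40, and 0 passed. That median was -0.70 without CRS replicate 2 and -0.14 without CRS replicate 3, where all genes were at -0.21 and -0.09. Of the 30, 13 had an unadjusted p under 0.05 without CRS replicate 2, and 0 with all libraries. Without that library, 4098 genes were lower and 778 higher at that threshold, of 28552 tested. Lef1, a hair matrix transcription factor gene of the Wnt pathway, was 11.1 ± 3.69 FPKM in the controls and 5.71 ± 2.92 FPKM under stress, and overlapped between groups. Tfam, the packaging factor of mitochondrial DNA, was 10.1 ± 0.89 and 6.18 ± 1.64 FPKM, with separate groups (log2 fold change -0.73, SE 0.32, limma adjusted p = 0.9999). Separate, lower CRS values were found in 2 of the 30, against 5.19% of all genes.

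Linker histones compete with HMGN and HMGB proteins on the nucleosome. Of 7 genes 4 were under 0 and 3 above, and 0 passed the test. The most abundant, H1f0, was 165.3 ± 27.9 FPKM in the controls and 149.3 ± 33.5 FPKM under stress. The log2 fold change was -0.80 (SE 0.47) for H1fx and -0.22 (SE 0.50) for Hist1h1e. The list's median of -0.16 turned above 0 under median-ratio scaling (0.082) and in 5 other settings, and it was -0.54 without CRS replicate 1, where all genes were at -0.25.

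Other abundant chromatin proteins lay nearer to the HMGB genes. All 12 genes of that list were under 0, with a median of -0.75, 6 had separate, lower CRS values and 0 passed the test. The share of separate, lower genes was 5.19% of all genes and 9.94% of those averaging at least 5 FPKM. An unadjusted p under 0.05 was found for 3 of the 12, as for 1.63% of all genes in that direction. That count was 0 without CON replicate 1 or CRS replicate 3, 1 without CON replicate 3 or CRS replicate 1, and 10 without CRS replicate 2. In the last setting, 4098 of all 28552 genes tested were lower and 778 higher at that threshold. Cbx1, a heterochromatin protein gene, was 33.7 ± 6.76 FPKM in the controls and 17.0 ± 4.23 FPKM under stress (log2 fold change -0.99, SE 0.32, limma adjusted p = 0.9999). Nap1l1, a histone chaperone gene, was 53.7 ± 3.52 and 32.3 ± 4.46 FPKM. Of the SET complex, in which Hmgb2 protein is found, and the related Anp32 genes, 6 were tested, all were under 0 with a median of -0.80, and 0 passed. Anp32a stood at 42.2, 36.7 and 35.4 FPKM in the controls and 13.3, 28.1 and 20.6 FPKM in the stressed mice, and Set at 130.3, 107.3 and 126.6 against 63.7, 78.5 and 65.4 FPKM. Both had separate groups, while the other 4 overlapped. Trex1 was listed at 0 in all 6 libraries.

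Among receptors and partners of extracellular Hmgb1, 7 of 11 tested were under 0 and 4 above, and 0 passed. The median of -0.13 moved both ways. It was 0.10 under median-ratio scaling and 0.062 without CRS replicate 3, and -0.26 and -0.22 without CON replicate 1 or 3. Without CRS replicate 2 it was -0.49, where all genes were at -0.21, and 3 of 10 had an unadjusted p under 0.05. In that setting, 4098 of all 28552 genes tested were lower and 778 higher at that threshold. Cd24a, a surface protein that binds Hmgb1, was 77.9 ± 14.5 FPKM in the controls and 49.4 ± 9.01 FPKM under stress, with separate groups (log2 fold change -0.65, SE 0.32). It was the only 1 of the 11 with separate groups, where 5.19% of all genes had separate, lower CRS values. Thbd, which encodes thrombomodulin, was 5.54 ± 1.82 and 3.97 ± 3.09 FPKM.

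Other stathmin genes and the tubulin genes, whose products stathmin binds, were divided. Of 14 other stathmin and tubulin genes 7 were under 0 and 7 above, with a median of -0.0011 that ran from -0.25 with a common sum without mitochondrial genes to 0.23 under median-ratio scaling, and 0 passed. It was -0.18 without CON replicate 1. The beta-tubulin gene Tubb5 had separate groups, at 182.2 ± 8.47 FPKM in the controls and 129.6 ± 8.59 FPKM under stress (log2 fold change -0.49, SE 0.32, limma adjusted p = 0.9999), and so had the alpha-tubulin gene Tuba1b (log2 fold change -0.55, SE 0.37). They were the only 2 of the 14. The share of separate, lower genes was 5.19% of all genes and 9.94% of those averaging at least 5 FPKM. Stmn3, a neuronal stathmin gene, was at most 0.596 FPKM in any library, with a log2 fold change of -1.14 (SE 0.66).

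The 25 cell cycle genes were set beside the members because Hmgb2 and Stmn1 are known from dividing cells. Like the other lists, this one was chosen with earlier results of these data known, so its counts are a description. All 25 were under 0, with a median of -0.80, 10 had separate, lower CRS values, 11 had an unadjusted p under 0.05 and 0 passed the test. Over all genes 67.8% were under 0, 5.19% had separate, lower CRS values and 1.63% an unadjusted p under 0.05 with CRS lower. The count of 11 became 2 under median-ratio scaling, 3 with the replicate number as a block and 25 without CRS replicate 2. It was 4 to 6 with any 1 of the other 5 libraries left out. Without CRS replicate 2, 4098 of all 28552 genes tested were lower and 778 higher at that threshold. Ube2c and Cdk1, both needed for mitosis, had fold changes on the log2 scale of -1.02 (SE 0.28) and -0.93 (SE 0.28), each with an adjusted p of 0.9999 in limma. The summed level of the list was 465.9, 378.5 and 358.8 FPKM in the controls and 197.9, 304.2 and 208.3 FPKM in the stressed mice, so CRS replicate 2 was nearest to the CON mice. In that library the members did not share 1 position: Hmgn5 and Hmga1 were near their CON values, and Stmn1 was at its lowest.

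**Figure D4:**
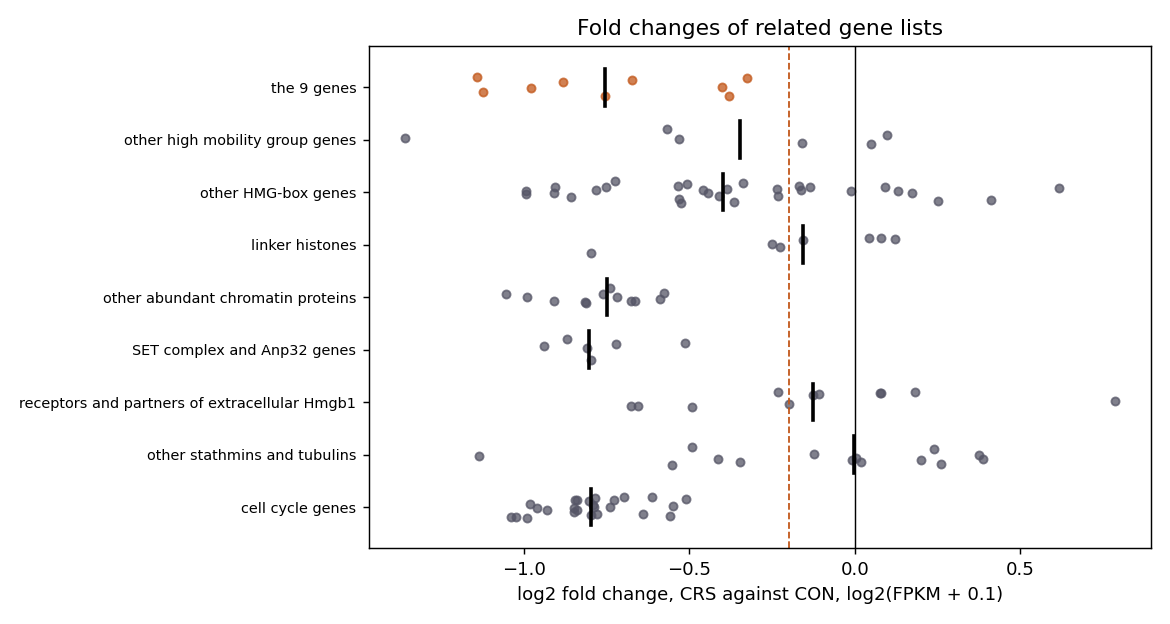
Log2 fold changes of CRS against CON for the 9 genes and for the related lists (points are genes, vertical bars are medians, the dashed line is the median of all genes tested, -0.20). The 9 genes, the other abundant chromatin proteins, the SET complex list and the cell cycle genes have medians from -0.80 to -0.75, while the stathmin and tubulin list is centred near 0.

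Markers of cell types that skin samples can hold also differed between libraries, and their part in the members' values was not tested. The 8 skeletal muscle markers, all above 0 in every library, summed to 1461 to 13157 FPKM in the controls and 449 to 2797 FPKM in the stressed mice. The 7 hair matrix markers summed to 232.7 to 358.9 FPKM in the controls and 173.6 to 361.9 FPKM in the stressed mice, the highest CRS value being that of replicate 2. The 7 epidermal markers were at 2006 to 2338 FPKM in the controls and 2430 to 3166 FPKM in the stressed mice, and the 4 melanocyte markers at 250.6 to 286.0 and 169.4 to 194.3 FPKM. Each of these markers was above 0 in all 6 libraries, as were the 25 markers of fibroblasts, endothelium, macrophages, lymphocytes, adipocytes and Schwann cells. The epidermal sum was higher and the melanocyte sum lower in each stressed mouse than in each control, and the sums of the other 8 cell type lists overlapped between groups. The 9 mitochondrial transcripts summed to 21583 to 112387 FPKM in the controls and 14545 to 18781 FPKM in the stressed mice. The 6 fibroblast markers summed to 233.9 FPKM in CON replicate 1 and to 803.2 to 1277 FPKM in the other libraries. In bulk tissue, fewer cells of a type and less RNA per cell cannot be told apart.

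**Figure D5:**
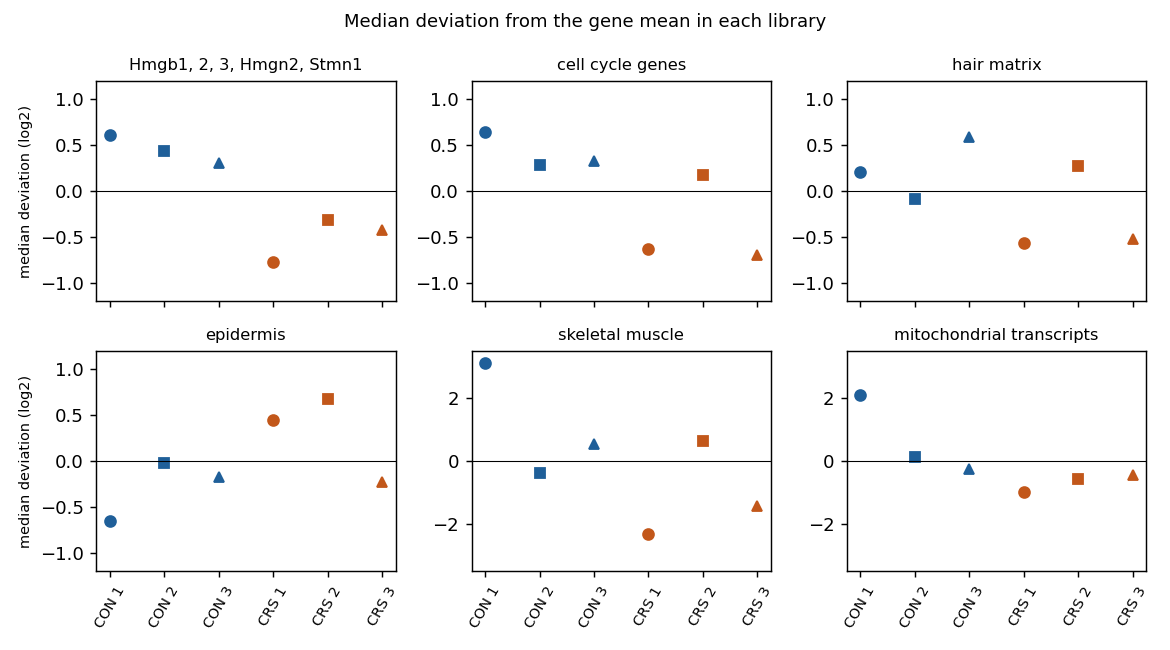
Median deviation from the gene mean (log2) in each library for Hmgb1, Hmgb2, Hmgb3, Hmgn2 and Stmn1 together, the cell cycle genes and 4 marker lists; the scale is wider for skeletal muscle and mitochondrial transcripts. CON replicate 1 is at 3.13 for muscle and 2.11 for mitochondrial transcripts, and CRS replicate 2 is at 0.18 for the cell cycle genes and 0.27 for the hair matrix markers.

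Medians within each library are given for the same sets. For the 5 separate members they were 0.61, 0.44 and 0.30 in CON and -0.77, -0.32 and -0.42 in CRS. For the cell cycle genes they were 0.64, 0.29 and 0.33 in CON and -0.63, 0.18 and -0.69 in CRS. The 5 were taken because each CRS value was below each CON value, so their low value in CRS replicate 2 was set by that choice and is not compared with the other lists. For all 9 members the medians were 0.47, 0.41 and 0.28 in CON and -0.60, -0.32 and -0.32 in CRS. For the hair matrix markers CRS replicate 2 was at 0.27, above CON replicate 2 at -0.09. For the epidermal markers the medians were -0.66, -0.02 and -0.17 in CON and 0.45, 0.67 and -0.23 in CRS, so the groups overlapped by this measure.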

How the data were processed

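Skin RNA of 3 CRS and 3 CON mice was measured, 1 library each, grouped by the sample titles. The authors deposited FPKM values, 1 file per library, per the file headers. HISAT2 and the build GRCm39 are named in the submitters' processing notes. For the counting program, annotation, strand and versions: not given in the sources used here. Symbols and exon lengths came from GENCODE M21 (GRCm38), which held 54079 of the 54146 IDs. FPKM times exon length fell on steps of 1 fragment: 98.1% to 98.4% of values up to 100 fragments lay within 0.05 of a whole number, which gave the depth.

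Genes averaging 0.1 FPKM or more were fitted as log2(FPKM + 0.1) with limma 3.58.1 (R 4.3.3), with a variance trend, two-sided, Benjamini-Hochberg adjusted over all of them, threshold 0.05. This scale understates changes of low genes. The SE of a fold change is that of this fit. The members and the 8 lists were chosen with earlier results of these data known. Text names all members, the 2 closest profiles of each (at least 5 FPKM) and the 2 genes of lowest p in each list. Other genes named for their level, separate groups or absence (H1f0, Tuba1b, Hmg20b, Hmga1b, Hmgb4, Trex1, Xist, Ddx3y) were chosen after their values were seen, or are here to account for a list. Copies were searched with blastn 2.17.0. The fit was tested on simulated data. Alternatives covered pseudocount, filter, scaling, variance model, weights, a replicate block, voom and each library left out; a length correction (lowess, span 0.3) and a fit without both outlying libraries were added after the data were seen. Tables and figures used Python 3.11.15, pandas 2.3.3 and matplotlib 3.10.9.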

Additional observations from a re-analysis of the deposited data

How the results depend on the processing

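In all 19 alternatives run, 0 genes passed the adjusted threshold in limma. The median log2 fold change of the 9 members, -0.75, lay between -1.004 and -0.514 over them, and between -0.99 and -0.70 with each library left out. Relative to the median of all genes it lay between -0.78 and -0.44. A changed filter, the fit without a variance trend and the replicate block cannot alter a member's fold change. Part of the counts that follow therefore repeats the main values. Of the 171 member values under the 19 alternatives, 170 were under 0, the exception being Hmgn3 without CRS replicate 2 (0.029). Of them, 163 moved by less than the spread between mice. The 8 others concerned Hmgb1, Hmgn2 and Stmn1 and came from scaling or length correction: median-ratio scaling, which moved the median of all genes to 0.008, gave -0.74 for Hmgb1, -0.51 for Hmgn2 and -0.90 for Stmn1. Rescaling to a common sum without mitochondrial genes, which moved that median to -0.42, gave -1.23, -1.004 and -1.39. The length correction gave -0.75 for Hmgb1. At an unadjusted p under 0.05 the count of lower genes went from 462 to 4098 without CRS replicate 2 and to 6525 with array weights. With the replicate number as a block, 0 genes passed, and 256 were higher and 370 lower at the unadjusted threshold. Deviations from the group means correlated at -0.30, -0.04 and 0.10 between same-numbered libraries, over 14371 genes. Between differently numbered libraries the correlations ran from -0.40 to 0.50. Deviations of 3 libraries from their own mean depend on each other, so these values cannot show whether libraries were paired or processed together. Depth limits the low genes most: Hmgn3 rests on 232 to 432 fragments per library.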
